A study of Mus musculus with 24 samples.

Results

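The endocannabinoid system of BV-2 cells, an immortalized mouse microglial line, was followed through 10 genes: the cannabinoid receptors Cnr1 (CB1) and Cnr2 (CB2), the lipid receptor Gpr55, and 7 enzymes that make or break down endocannabinoids. Members were every probe that the array's annotation assigned to 1 of these genes. Of the 10 genes, 9 had a probe, with 14 probes among the 24611 on the array, and Gpr55, which had none in the annotation used, was left out. Only 8 of the 14 probes, belonging to 6 genes, were detected on all arrays of at least 1 group, as were 10744 probes of the whole array. Detection was taken as a detection p under 0.05, the probe's signal set against the negative control beads of its own array.

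Endocannabinoids are lipid messengers made on demand from membrane phospholipids. Anandamide is released by enzymes that include Napepld and is hydrolysed by Faah, while 2-arachidonoylglycerol is made from diacylglycerol by the lipases Dagla and Daglb and is hydrolysed by Mgll, Abhd6 and Abhd12. CB1 is the main cannabinoid receptor of neurons and CB2 that of immune cells, and in microglia Daglb, rather than Dagla, is known as the principal 2-arachidonoylglycerol synthase.

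RNA was hybridized to 24 Illumina MouseRef-8 BeadChips. The groups were CBD_LPS (2 arrays, cannabidiol at 10 µM for 2 h and then lipopolysaccharide at 100 ng/ml for another 4 h), THC_LPS (4 arrays, tetrahydrocannabinol at 10 µM with the same LPS schedule), CBD alone (2 arrays, 10 µM for 6 h), THC alone (4 arrays, 10 µM for 6 h), LPS alone (6 arrays, 100 ng/ml for 4 h) and Cntr, the control cells (6 arrays). All 6 groups were of the same cell line, and no label names separate cultures for the replicates, so every p-value refers to array-to-array spread that may be technical. Values below are log2 signals, and differences are log2 differences with standard errors (SE) from limma, with Benjamini-Hochberg adjustment over all 24611 probes and a call at an adjusted p under 0.05.

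Between 40.6% and 44.8% of the probes were detected per array, and the number of arrays, above all the 2 of CBD and the 2 of CBD_LPS, limited the precision. Of 11 microglial marker genes with a probe 10 were detected on some array, Trem2, Tyrobp and Mef2c among the brightest, whereas P2ry12 was not detected. No oligodendrocyte (0 of 4) or fibroblast marker (0 of 5) was detected, 2 of 6 neuron, 2 of 6 astrocyte and 3 of 5 lymphocyte markers were detected on some array (Tubb3 on all 24 and Syp on 19, the other markers on at most 6, and Snap25, Syt1, Gfap and Aqp4 on none). Between LPS and Cntr no marker of another cell type was called, but 3 microglial markers were, Mef2c (-1.10), Tmem119 (-0.24) and Cx3cr1 (0.65). In CBD_LPS cells those called against Cntr were all lower: C1qa (-1.88), C1qb (-1.10), C1qc (-1.08), Cx3cr1 (-1.18), Tmem119 (-0.54) and Mef2c (-2.02). In CBD cells they were C1qa (-1.71), C1qc (-0.94) and Mef2c (-1.04), and in THC_LPS cells Tmem119 (-0.47) and Mef2c (-1.18). The part of these marker changes in the results below was not tested. The cytokine Il1b had log2 signals of 13.86 to 14.98 in LPS cells, against 6.97 to 7.53 in Cntr cells. The arrays of the CBD groups stood apart from each other: Ddit3, a stress-response transcription factor, was at 10.42 and 12.72 on the CBD_LPS arrays and at 13.26 and 11.10 on the CBD arrays, against 8.43 to 8.81 in Cntr cells. Il1b was at 13.31 and 10.53 on CBD_LPS replicates 1 and 2. THC replicate 1 stood apart too, with Il1b at 9.27 against 6.90 to 7.34 on the other THC arrays. The cytokine Tnf was at 11.79 on that array, against 10.11 to 10.41 on the others. The chemokine Cxcl10, at 7.97, lay within their range of 7.67 to 8.22. The part of THC replicate 1 in the THC values below was not tested as a cause.

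Detection differed between members of the same role, among receptors, synthesis enzymes and breakdown enzymes alike. Neither Mgll probe and neither Dagla probe was detected on any of the 24 arrays, with log2 signals between 6.28 and 7.11 throughout. The Cnr1 probe scl0002650.1_20-S was detected on 6 arrays, namely 1 of CBD_LPS, 1 of THC_LPS, 1 of LPS and 3 of Cntr, and the Cnr1 probe scl0012801.2_230-S on 1 Cntr array. The highest Cnr1 value, 7.78 for the first of these probes on CBD_LPS replicate 1, was the only one with a detection p under 0.01, and no group of either Cnr1 probe was detected throughout. None of these 6 probes changed in any comparison, and with signals this close to the negative control beads a change in Cnr1, Mgll or Dagla was not detectable. Napepld, Faah (both probes), Abhd6, Abhd12 and the brighter Daglb probe were detected on all 24 arrays.

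**Figure D1:**
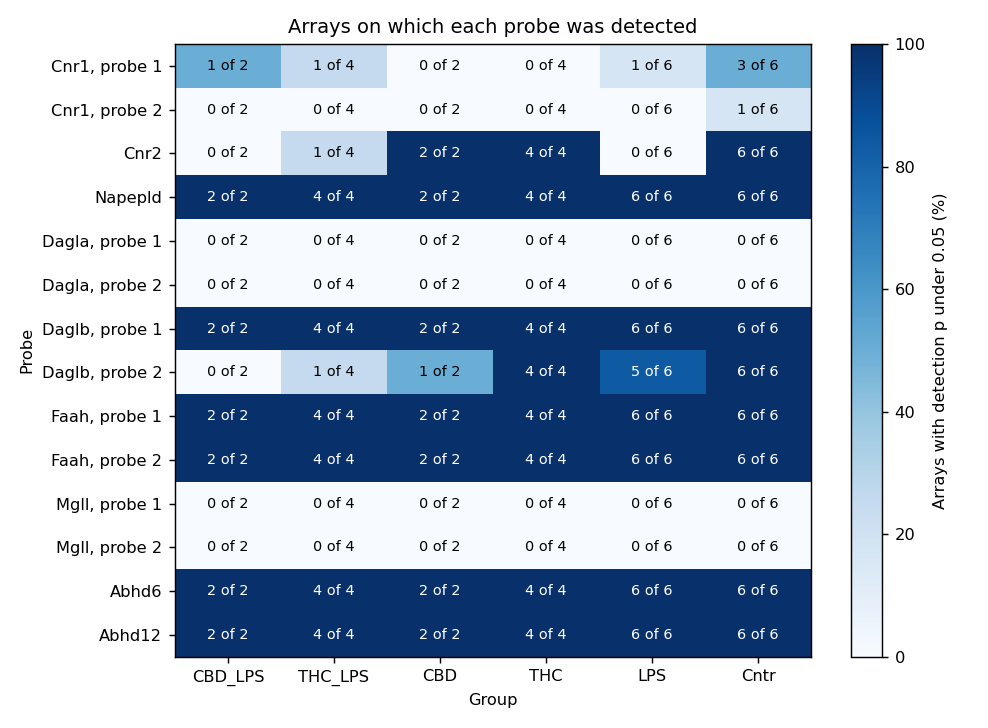
Number of arrays with a detection p under 0.05 for each of the 14 probes (rows) in each group (columns), with the share of the group's arrays as colour. Cnr2 was detected on 2 of 2 CBD, 4 of 4 THC and 6 of 6 Cntr arrays, but on 0 of 2 CBD_LPS, 1 of 4 THC_LPS and 0 of 6 LPS arrays, and neither Mgll nor Dagla was detected anywhere.

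Cnr2, which encodes the CB2 receptor, was at or near the detection limit in every group that received LPS and clearly detected in every group that did not. The gene lies on chromosome 4 (GRCm38.p6, 135895189 to 135920219), and its single probe was detected on 13 of 24 arrays. The moderated F over the 5 differences from Cntr gave an adjusted p of 1.34e-08 for this probe and passed for 5 member probes, beside 18.4% of all probes. RefSeq lists 2 Cnr2 start sites, and the bases from 250 before to 50 after each are shown because Cnr2 and Daglb were the members that fell furthest. Neither window, printed in lower case, held the PU.1 core GAGGAA on either strand.
Cnr2 upstream start, chr4:135894939-135895238, + strand: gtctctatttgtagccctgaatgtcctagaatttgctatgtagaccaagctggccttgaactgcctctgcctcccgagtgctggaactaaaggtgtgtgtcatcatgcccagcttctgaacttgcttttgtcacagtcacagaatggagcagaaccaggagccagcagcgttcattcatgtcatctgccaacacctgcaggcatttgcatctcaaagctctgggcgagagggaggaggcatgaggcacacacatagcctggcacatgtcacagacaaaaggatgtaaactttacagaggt
Cnr2 downstream start, chr4:135911430-135911729, + strand: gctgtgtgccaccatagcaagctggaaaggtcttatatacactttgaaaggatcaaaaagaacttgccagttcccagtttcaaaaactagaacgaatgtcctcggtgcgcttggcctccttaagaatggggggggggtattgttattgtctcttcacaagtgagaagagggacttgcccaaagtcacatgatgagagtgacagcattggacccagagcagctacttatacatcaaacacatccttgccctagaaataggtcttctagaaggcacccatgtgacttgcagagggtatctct

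The Cnr2 signals were 6.76 and 6.81 on the CBD_LPS arrays, 6.76, 7.33, 6.79 and 6.74 on the THC_LPS arrays, 8.12 and 7.80 on the CBD arrays and 7.63, 8.15, 8.37 and 8.06 on the THC arrays. In LPS cells they ran from 6.45 through a median of 6.79 to 6.87, against 7.65, 8.02 and 8.27 in Cntr cells. Every array that had seen LPS lay below every array that had not, and the 3 groups with LPS overlapped each other, as did the 3 groups without. In RNA from whole cultures, fewer cells with Cnr2 RNA and less of it per cell cannot be told apart.

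Against Cntr cells, Cnr2 fell by 1.27 in LPS cells (SE 0.124, adjusted p 4.13e-08), by 1.23 in CBD_LPS cells (SE 0.176, adjusted p 1.95e-05) and by 1.11 in THC_LPS cells (SE 0.139, adjusted p 2.31e-06). Since the probe was not above background on any LPS or CBD_LPS array, the level in Cntr cells was at least 1.71-fold that in LPS cells and at least 1.76-fold that in CBD_LPS cells, where the bound sets the dim group at the lowest detected signal of each of its arrays. Of all probes, 72 had a more negative difference than Cnr2 between LPS and Cntr. These values carry no background correction, and the LPS difference ran from -2.50 with background subtraction to -0.37 with neqc, whose lowest values are raised, while the call was kept under all 34 alternatives.

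Neither cannabinoid by itself moved Cnr2 past the test. The difference from Cntr was -0.06 in CBD cells (95% interval -0.42 to 0.31) and 0.04 in THC cells (-0.25 to 0.32). With LPS present, it was 0.03 between CBD_LPS and LPS (-0.33 to 0.40) and 0.15 between THC_LPS and LPS (-0.13 to 0.44). The LPS effect with a cannabinoid minus that without was 0.09 for CBD (adjusted p 1.00) and 0.12 for THC (adjusted p 1.00), intervals -0.42 to 0.60 and -0.29 to 0.52.

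**Figure D2:**
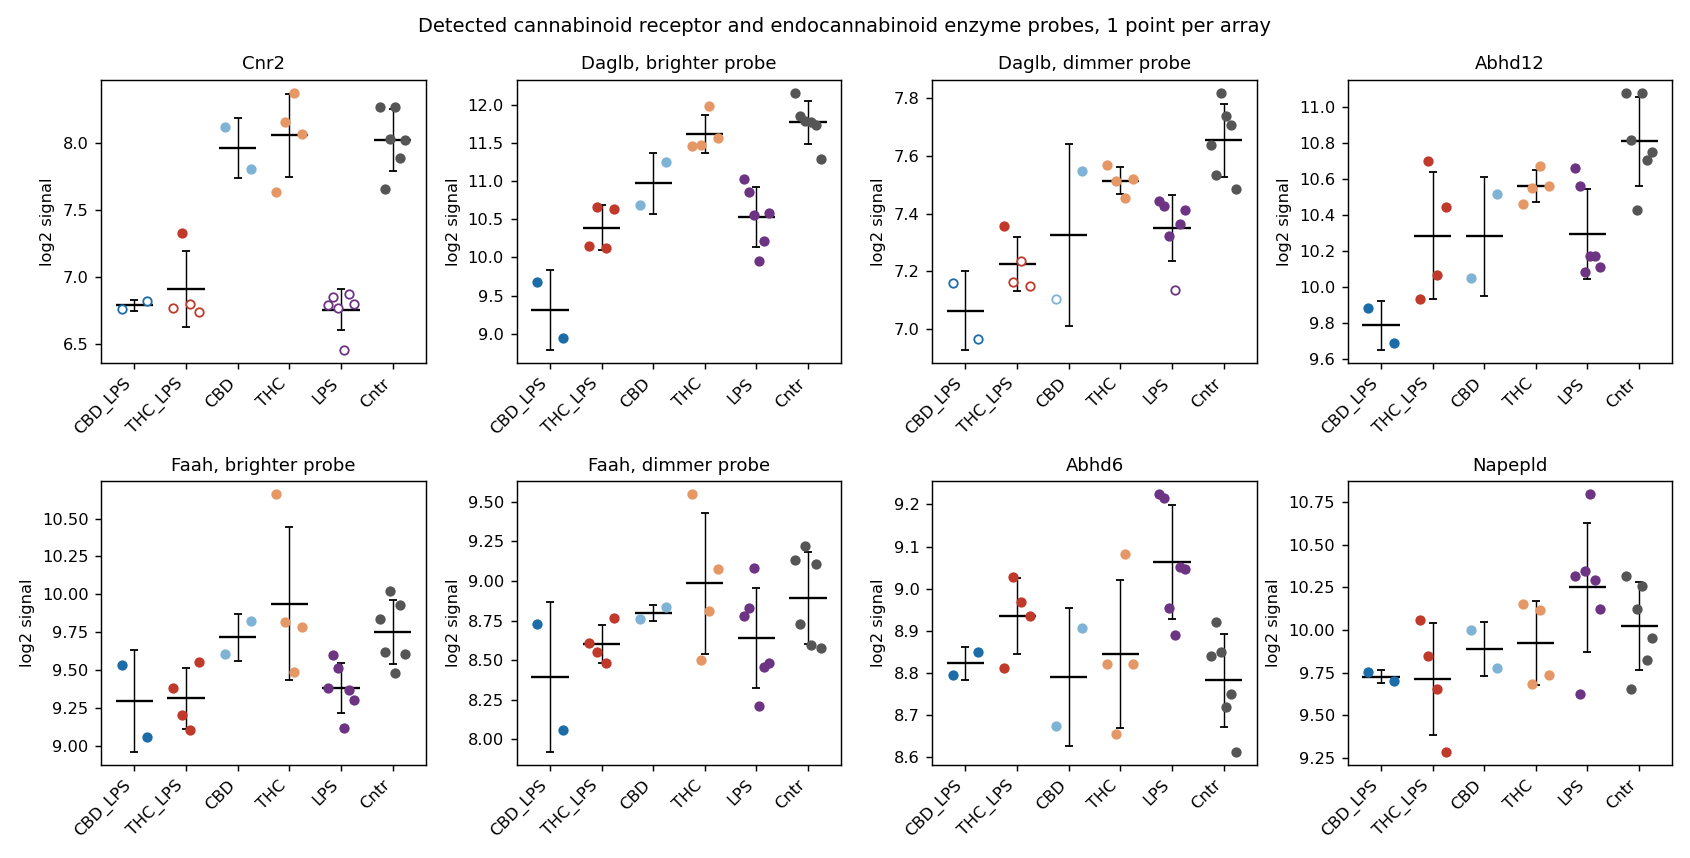
Log2 signal (vertical axis) of the 8 detected probes on every array, by group, with the mean as a bar and the SD as whiskers. Filled points had a detection p under 0.05 and open points did not, and each panel has its own vertical scale. Cnr2 separates the arrays with LPS from those without, and the brighter Daglb probe is lowest in CBD_LPS.

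Daglb, the 2-arachidonoylglycerol synthase, was lower with LPS and lowest where CBD had been given before LPS. It lies on chromosome 5 (GRCm38.p6, 143464484 to 143504442) and had 2 probes, scl0231871.16_33-S, detected on all arrays, and the dimmer scl0004116.1_25-S, detected on 17. Its promoter window held 1 PU.1 core, in capitals below, which starts 228 bases before the start site. Of all 32851 RefSeq promoter windows of this length, 28.3% held that core on either strand.
Daglb, chr5:143464243-143464542, + strand: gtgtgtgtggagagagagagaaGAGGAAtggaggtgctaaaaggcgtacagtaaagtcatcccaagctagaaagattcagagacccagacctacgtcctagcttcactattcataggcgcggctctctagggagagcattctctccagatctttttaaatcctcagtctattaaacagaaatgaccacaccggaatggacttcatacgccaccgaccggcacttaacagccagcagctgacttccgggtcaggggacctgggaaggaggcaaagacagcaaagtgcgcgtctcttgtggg

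On the brighter Daglb probe the signals were 9.68 and 8.94 in CBD_LPS cells, 10.15, 10.66, 10.12 and 10.63 in THC_LPS cells, 10.69 and 11.25 in CBD cells and 11.46, 11.47, 11.98 and 11.56 in THC cells. In LPS cells they ran from 9.95 through 10.57 to 11.02, against 11.29, 11.78 and 12.16 in Cntr cells. The 2 CBD_LPS arrays lay below all 22 others, and the LPS and THC_LPS arrays overlapped each other but not the Cntr arrays. The 2 CBD arrays lay below all THC and all Cntr arrays, and within the range of the LPS arrays or just above it.

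Relative to Cntr, Daglb fell by 2.46 in CBD_LPS cells (SE 0.247, adjusted p 1.63e-07), by 1.38 in THC_LPS cells (SE 0.195, adjusted p 1.39e-05) and by 1.24 in LPS cells (SE 0.175, adjusted p 9.83e-06). Those differences correspond to a signal 81.8%, 61.5% and 57.6% lower than in Cntr cells. The dimmer probe went the same way, with -0.59 in CBD_LPS (adjusted p 4.10e-04), -0.43 in THC_LPS (adjusted p 9.23e-04) and -0.30 in LPS (adjusted p 0.00703), and -0.33 in CBD (adjusted p 0.115; without CBD replicate 2, -0.55 and adjusted p 0.0112). It was not above background on either CBD_LPS array, so the Cntr level was at least 1.37-fold that of CBD_LPS cells, and over the 24 arrays the Daglb probes had a correlation of 0.849, and of 0.455 for deviations from the group means.

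Between CBD_LPS and LPS cells, the brighter Daglb probe differed by -1.22 (SE 0.247, adjusted p 0.00522), with 2 of 2 CBD_LPS arrays below all 6 LPS arrays, a lack of overlap that 14% of all probes showed. It was the only member called there, beside 3.9% of all probes. Without CBD_LPS replicate 2 the difference was -0.85 (adjusted p 0.410), and fitted on those groups alone it had an adjusted p of 0.0503, so the call rested on that array and on the spread shared with the other groups. Between THC_LPS and LPS the difference was -0.14 (95% interval -0.54 to 0.26), and no probe of the whole array passed (0%, limma), with 2 member probes at an unadjusted p under 0.05.

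CBD alone gave a Daglb difference from Cntr of -0.80 (SE 0.247, interval -1.31 to -0.29, unadjusted p 0.00357), which did not pass at an adjusted p of 0.0843. THC alone gave -0.15 (interval -0.55 to 0.25, adjusted p 1.00). No member passed in either comparison, against 2.83% of all probes for CBD and 0.00406% for THC, with 3 members at an unadjusted p under 0.05 for CBD and 0 for THC. The LPS effect on Daglb with CBD minus that without was -0.42 (interval -1.14 to 0.30, adjusted p 1.00). No probe of the array passed that test for CBD or for THC (0% each, limma), and 0 and 2 member probes had an unadjusted p under 0.05.

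At equal dose and time, CBD and THC were set against each other directly. CBD_LPS lay below THC_LPS by 1.08 on the brighter Daglb probe (SE 0.262, adjusted p 0.0457, 2 of 2 arrays below all 4, as 17.3% of all probes were apart), the only member that passed beside 0.922% of all probes, and this call was lost under 20 of 34 alternatives, with -0.71 (adjusted p 0.780) without CBD_LPS replicate 2. Leaving out THC_LPS replicate 2 or 4 (-0.99 and -1.001), or 1 array outside both groups (THC replicate 2 or 4, LPS replicate 3, 5 or 6, or Cntr replicate 2, 3, 4 or 5, -1.08 each), also ended it, with adjusted p from 0.052 upwards. Without LPS, the CBD difference from THC was -0.65 (interval -1.19 to -0.11, adjusted p 0.338), with no overlap between the arrays, as for 17.5% of all probes, and no member passed beside 0.784% of all probes. On Cnr2 the CBD to THC difference was -0.09 (interval -0.48 to 0.29) and the CBD_LPS to THC_LPS difference was -0.12 (-0.51 to 0.27).

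**Figure D3:**
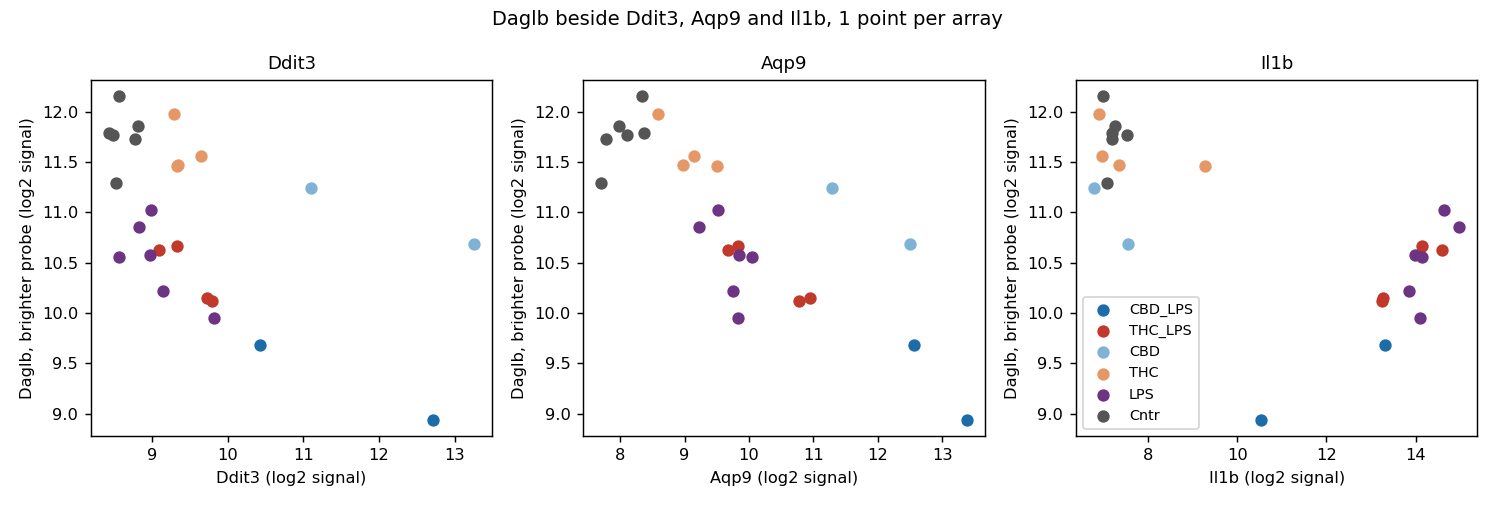
Log2 signal of the brighter Daglb probe (vertical axis) against Ddit3, Aqp9 and Il1b (horizontal axes, log2 signal), 1 point per array, coloured by group. CBD_LPS replicate 2, with Ddit3 at 12.72 and Il1b at 10.53, had the lowest Daglb value, 8.94.

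Within each CBD group, the array with the lower Daglb had the higher Ddit3 and the higher Aqp9, a water and glycerol channel. CBD_LPS replicate 2 had the lower Daglb (8.94 against 9.68 on replicate 1) and the higher Ddit3 (12.72 against 10.42) and Aqp9 (13.38 against 12.56). CBD replicate 1 had the lower Daglb (10.69 against 11.25 on replicate 2) and the higher Ddit3 (13.26 against 11.10) and Aqp9 (12.50 against 11.29). Il1b, Tnf and Cxcl10 differed in opposite directions in CBD_LPS and CBD. On the array with the lower Daglb they were lower in CBD_LPS (Il1b 10.53 against 13.31, Tnf 14.15 against 14.72, Cxcl10 11.93 against 12.85). In CBD they were higher on that array (Il1b 7.55 against 6.78, Tnf 10.37 against 10.06, Cxcl10 9.29 against 8.06). With 2 arrays in each group these are values side by side, and the part of the difference between arrays in the Daglb result was not tested.

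Abhd12, a serine hydrolase that breaks down 2-arachidonoylglycerol and lysophosphatidylserine, was also lower in all 3 groups with LPS. Its signals were 9.88 and 9.69 in CBD_LPS cells, 9.93, 10.70, 10.07 and 10.45 in THC_LPS cells, 10.05 and 10.51 in CBD cells and 10.46, 10.55, 10.67 and 10.56 in THC cells. LPS cells ran from 10.08 through 10.17 to 10.66, against 10.43, 10.78 and 11.08 in Cntr cells. The CBD_LPS arrays lay below those of every other group, whereas LPS and THC_LPS overlapped Cntr.

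The Abhd12 difference from Cntr was -1.02 in CBD_LPS (SE 0.189, adjusted p 4.22e-04), -0.52 in THC_LPS (SE 0.149, adjusted p 0.0194) and -0.51 in LPS (SE 0.133, adjusted p 0.00824). The THC_LPS call was lost without THC_LPS replicate 1 (-0.41, adjusted p 0.111) and without THC_LPS replicate 3 (-0.45, adjusted p 0.0836). CBD alone gave -0.53 (interval -0.92 to -0.14, adjusted p 0.156) and CBD_LPS against LPS -0.51 (interval -0.90 to -0.12, adjusted p 0.152), neither past the threshold.

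Abhd6, a membrane-bound hydrolase of 2-arachidonoylglycerol, was the only member that rose in any comparison. Its signals were 8.80 and 8.85 in CBD_LPS cells, 8.81, 9.03, 8.97 and 8.93 in THC_LPS cells, 8.68 and 8.91 in CBD cells and 8.82, 8.66, 9.08 and 8.82 in THC cells, and in LPS cells they ran from 8.89 through 9.05 to 9.22, against 8.61, 8.79 and 8.92 in Cntr cells. LPS and Cntr arrays overlapped narrowly. The difference of 0.28 (SE 0.0769, adjusted p 0.0126) shrank to 0.06 (adjusted p 0.604) when arrays were scaled to equal medians in place of quantile normalization. That scaling moved the median difference of all detected probes between LPS and Cntr to -0.19, against -0.05 with quantiles, so the Abhd6 value depended on the scaling.

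Faah, the anandamide hydrolase, had 2 probes detected throughout, and neither was called in a single comparison. The brighter probe read 9.54 and 9.06 in CBD_LPS cells, 9.38, 9.21, 9.10 and 9.56 in THC_LPS cells, 9.61 and 9.82 in CBD cells and 10.66, 9.82, 9.48 and 9.78 in THC cells, and 9.12, 9.37 and 9.60 (lowest, median, highest) in LPS cells, against 9.48, 9.73 and 10.02 in Cntr cells. THC replicate 1 was the highest array on this probe and, at 9.55, on the other Faah probe too, and the deviations of both probes from their group means had a correlation of 0.823 over the 24 arrays.

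The brighter Faah probe passed the test over all groups (adjusted F p 0.0335). Its difference from Cntr was -0.45 in CBD_LPS (adjusted p 0.181), -0.44 in THC_LPS (adjusted p 0.0921) and -0.37 in LPS (adjusted p 0.107), and the LPS difference passed without THC replicate 1 (adjusted p 0.0223), with the compared groups alone (adjusted p 0.0194) and with equal medians (-0.60, adjusted p 0.00238). The THC_LPS difference passed under the same 3 alternatives and with array weights. The dimmer Faah probe read 8.73 and 8.06 in CBD_LPS cells, 8.48 to 8.77 in THC_LPS, 8.76 and 8.84 in CBD, 8.50 to 9.55 in THC and 8.21 to 9.08 in LPS cells, against 8.58 to 9.22 in Cntr cells, and did not pass (adjusted F p 0.371). Its LPS difference from Cntr was -0.25, and with equal medians -0.48, which passed (adjusted p 0.0271).

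Napepld, the phospholipase D that releases anandamide, read 9.76 and 9.70 in CBD_LPS cells, 10.06, 9.85, 9.65 and 9.29 in THC_LPS cells, 9.998 and 9.78 in CBD cells, 10.15, 9.69, 10.12 and 9.73 in THC cells and 9.63, 10.30 and 10.79 (lowest, median, highest) in LPS cells, against 9.65, 10.04 and 10.31 in Cntr cells. Groups next to each other in mean level overlapped, except CBD and CBD_LPS, and Napepld was not called in any comparison (adjusted F p 0.219). Against LPS it differed by -0.54 in THC_LPS (interval -0.90 to -0.18, unadjusted p 0.00491, adjusted p 1.00) and by -0.52 in CBD_LPS (interval -0.97 to -0.07, adjusted p 0.219).

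Counted over the 14 probes, 1 rose and 4 fell in LPS cells relative to Cntr, beside 13.6% of all probes called in either direction, 5.63% called higher and 7.94% called lower. In CBD_LPS cells 0 rose and 4 fell, beside 6.06% of all probes called higher and 7.27% called lower (13.3% in either direction). In THC_LPS cells likewise 0 rose and 4 fell, beside 5.12% called higher and 6.92% called lower (12% in either direction). All called members were among the 8 detected probes. Of the 10744 detected probes of the whole array, 28.7% were called in LPS, 28.5% in CBD_LPS and 25.6% in THC_LPS cells. The 4 that fell were in each case Cnr2, both Daglb probes and Abhd12, and the comparisons share their Cntr arrays. The arrays of the compared groups did not overlap for 4 member probes in CBD_LPS (beside 20.8% of all probes), for 3 in THC_LPS (10.8%), for 3 in LPS (8.61%) and for 1, the brighter Daglb probe, in CBD cells (13%). The median difference of the 14 probes was -0.25 in CBD_LPS, -0.21 in THC_LPS and -0.07 in LPS, beside medians of all probes of -0.01 in each.

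**Figure D4:**
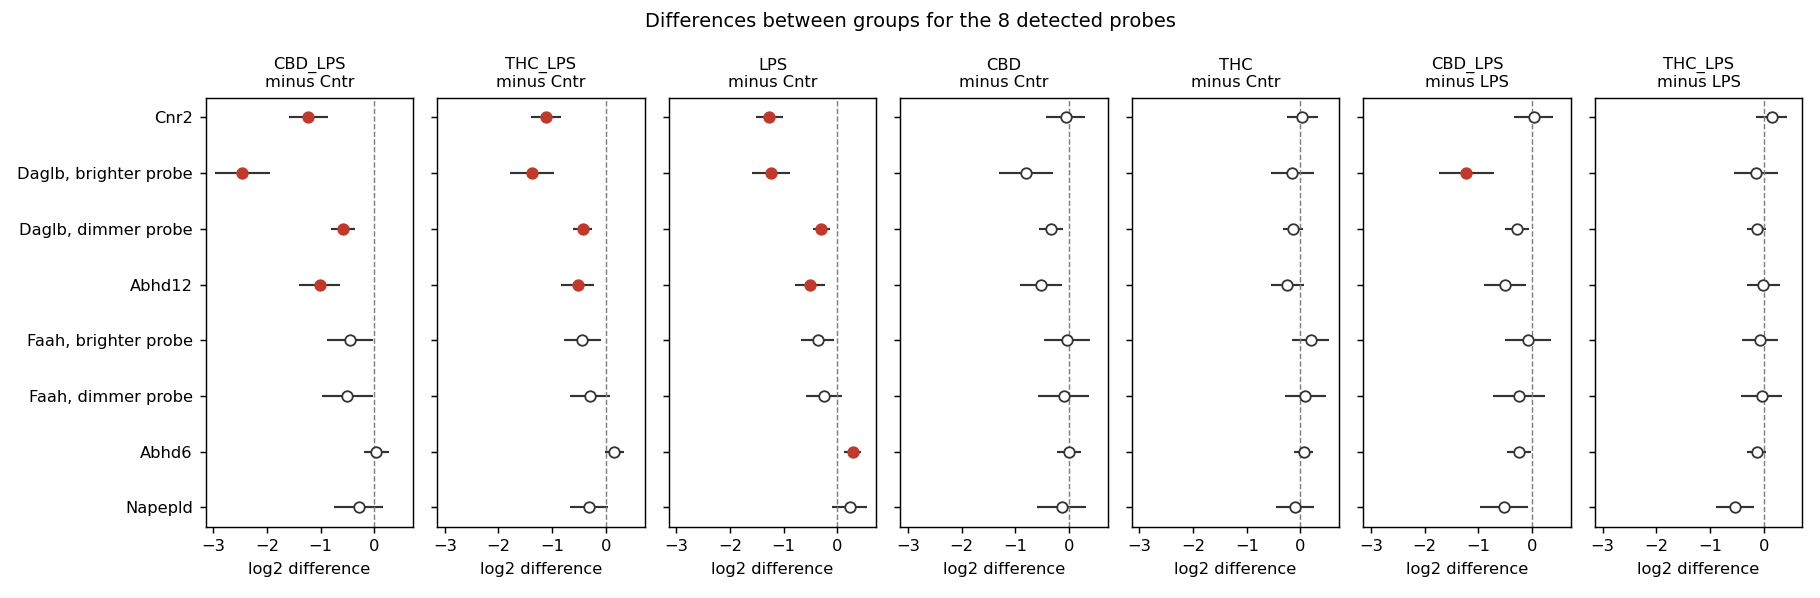
Log2 difference (horizontal axis) with its 95% interval for the 8 detected probes (rows) in 7 comparisons (panels). Red points passed at an adjusted p under 0.05 and open points did not. Cnr2, both Daglb probes and Abhd12 lie below 0 in every panel that sets a group with LPS against Cntr, and only Daglb is red between CBD_LPS and LPS.

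The signals most like Cnr2 over the 24 arrays, among 9092 detected probes of other genes, were those of Dennd2c, Tmem268 and Cxcr4, each with a Pearson r of 0.946. For the brighter Daglb probe they were Fam3c (0.965), Scamp5 and Entpd4 (0.946 each), for the dimmer probe Tlcd1 (0.887), Pdk1 (0.882) and Inpp5f (0.877). For Abhd12 they were Lmna (0.911), Fxyd5 (0.909) and Extl3 (0.903), and for the brighter Faah probe Etfbkmt (0.826), Gng2 (0.820) and Brip1 (0.799). These correlations are descriptions over arrays that share their 6 treatments.

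Around these members, 76 further genes of cannabinoid signalling were listed: other receptors and targets, other synthesis and breakdown enzymes, carriers and receptor coupling. Of these, 65 had a probe and 33 were detected on all arrays of at least 1 group. Counting 1 probe per gene, 5 rose and 5 fell in LPS cells, 6 rose and 3 fell in CBD_LPS cells and 4 rose and 4 fell in THC_LPS cells, each relative to Cntr, with 2 higher and 1 lower in CBD cells and 0 in THC cells, where 1 gene had an unadjusted p of 0.005 or less. Between CBD_LPS and LPS 2 rose and 0 fell. As shares of the 65 genes these were 15.4% in LPS, 13.8% in CBD_LPS, 12.3% in THC_LPS and 4.62% in CBD cells and 3.08% between CBD_LPS and LPS, beside 13.6%, 13.3%, 12%, 2.83% and 3.9% of all probes, so the counts do not set the pathway apart. The median differences of the 65 genes from Cntr were 0.03 in LPS, 0.01 in CBD_LPS and 0.03 in THC_LPS cells. The genes below are described one by one.

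The 3 genes called in CBD cells were Gdpd1, Gdpd3 and Inpp5d, a count that fell to 0 with single arrays left out and to 1 with equal medians. Gdpd1, a lysophospholipase D of N-acylethanolamine synthesis, was at 12.39 and 12.68 in CBD_LPS cells, 12.26 to 12.55 in THC_LPS cells, 11.30 and 12.04 in CBD cells and 12.09 to 12.45 in LPS cells, against 10.56 to 10.96 in Cntr cells. It rose by 1.76 in CBD_LPS, by 1.66 in THC_LPS and by 1.54 in LPS cells (adjusted p 1.37e-08 in LPS), and by 0.90 in CBD cells (adjusted p 0.0125), a call lost without CBD replicate 1 (0.53, adjusted p 0.991). THC cells, at 10.96 to 12.001, had a difference of 0.52 that did not pass (unadjusted p 0.00314, adjusted p 1.00). Their median was 11.10 and their mean 11.29, so the highest array pulled the mean up. All groups with LPS lay above all Cntr arrays. Of all probes, 20.8% in CBD_LPS, 10.8% in THC_LPS and 8.61% in LPS cells did not overlap with Cntr.

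Inpp5d, the phosphatase SHIP1, which has been placed in a phospholipase C route to anandamide and is better known as a brake on phosphoinositide signalling, ran the other way. Its signals were 9.37 and 9.63 in CBD_LPS cells, 9.75 to 10.18 in THC_LPS cells, 10.29 and 10.86 in CBD cells and 9.78 to 10.15 in LPS cells, against 11.31 to 11.80 in Cntr cells. It fell by 2.02 in CBD_LPS, by 1.61 in THC_LPS and by 1.52 in LPS cells (adjusted p 2.01e-10 in LPS), and by 0.95 in CBD cells (adjusted p 7.72e-04; without CBD replicate 1, -0.67 and adjusted p 0.335). THC cells, at 11.10 to 11.34, had a difference of -0.36 that did not pass (unadjusted p 0.00673, adjusted p 1.00). Cnr2, Inpp5d and Ptgs2 also stand in gene lists that the study drew up on these same samples, so their direction in those lists is not independent evidence. For Cnr2 the study also reports a fall with LPS by quantitative PCR, run on separate mRNA batches.

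Abhd4, a lipase that deacylates N-acylphosphatidylethanolamine, and Gdpd3, a relative of Gdpd1, were higher in CBD_LPS than in LPS cells. Abhd4 was at 10.30 and 11.28 in CBD_LPS cells, against 9.74 to 10.02 in LPS cells, a difference of 0.89 (adjusted p 0.00192). Gdpd3 was at 11.48 and 11.60 in CBD_LPS cells, against 10.25 to 10.84 in LPS cells, a difference of 1.00 (adjusted p 0.00754), and at 11.43 and 11.80 in CBD cells, against 10.54 to 11.20 in Cntr cells (0.78, adjusted p 0.0428, lost under 15 of 34 alternatives, with 0.60 without CBD replicate 1). Both CBD_LPS to LPS calls were lost without CBD_LPS replicate 2 (0.40 for Abhd4 and 0.93 for Gdpd3). In neither gene did the CBD_LPS and LPS arrays overlap, a lack of overlap that 14% of all probes showed. Relative to Cntr, CBD_LPS cells had a difference of 0.60 for Abhd4 and 0.71 for Gdpd3, both called and both lost without CBD_LPS replicate 2 (0.11 and 0.64), Gdpd3 also without CBD_LPS replicate 1 (0.77, adjusted p 0.0792). The Gdpd3 call in CBD cells was also lost without THC replicate 2 or 4, LPS replicate 3, 5 or 6, or Cntr replicate 3, 4, 5 or 6 (0.73 to 0.81).

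Among the breakdown enzymes, Ptgs2 (cyclooxygenase 2, which oxygenates anandamide and 2-arachidonoylglycerol as well as arachidonic acid) was not detected in CBD or THC cells and was detected on all arrays with LPS. Its signals were 8.84 and 9.75 in CBD_LPS cells, 8.80 to 10.53 in THC_LPS cells and 8.97 to 10.77 in LPS cells, against 6.77 to 7.53 in Cntr cells, where 1 of 6 arrays detected it. It rose by 2.34 in CBD_LPS, 2.82 in THC_LPS and 2.96 in LPS cells (adjusted p 1.41e-08 in LPS), the CBD_LPS call being lost with neqc (1.3, adjusted p 0.0627), while its other probe was detected on no array and did not change. Ddhd1, a phospholipase, rose by 0.51 in LPS cells (adjusted p 0.0218, lost with equal medians, at 0.29 and an adjusted p of 0.159, and without LPS replicate 1 or 2 or Cntr replicate 4, at 0.40 to 0.47) and by 0.68 in THC_LPS cells on the one of its 3 probes that was detected. Alox12, a lipoxygenase detected on 2 arrays, differed by 0.55 between CBD_LPS and Cntr (adjusted p 0.0107, and 0.30 with an adjusted p of 0.449 without CBD_LPS replicate 2).

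Of the other receptors, Gpr18, reported to respond to N-arachidonoylglycine, rose with LPS. It was detected on 6 of 6 LPS and 4 of 4 THC_LPS arrays, on 1 of 2 CBD_LPS arrays and on no Cntr array, with differences from Cntr of 1.01 in CBD_LPS (adjusted p 0.0457, lost under 20 of 34 alternatives, with 0.47 without CBD_LPS replicate 1), 1.39 in THC_LPS and 1.53 in LPS cells (adjusted p 3.33e-05). The CBD_LPS call was also lost without THC_LPS replicate 2, 3 or 4, CBD replicate 1 or 2, LPS replicate 1, 3 or 5, or any Cntr replicate but 3, where the difference stayed between 0.97 and 1.02. Pparg, a nuclear receptor, was detected only on the 2 CBD arrays (7.30 and 7.55, against 6.72 to 7.07 in Cntr cells). Its LPS and THC_LPS differences of -0.35 and -0.46, both called, were between values below detection. Its other 2 probes were not called in LPS. For Pparg too, the study reports a fall with LPS by quantitative PCR on separate mRNA batches. Trpv2, a channel opened by CBD, was detected throughout with group means between 12.42 and 12.75 and was not called.

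Carriers and coupling proteins moved little. Scp2, a sterol carrier, fell by 0.54 in CBD_LPS, by 0.31 in THC_LPS and by 0.32 in LPS cells relative to Cntr, with -0.33 (adjusted p 0.228) in CBD_LPS without its replicate 2 and -0.29 to -0.26 in THC_LPS without THC_LPS replicate 1 or 4 or Cntr replicate 1 or 2, none of which passed. These Scp2 values are those of its brightest probe. In LPS cells its probe scl020280.7_0-S was called too (-0.45). Its probe scl0020280.2_23-S, detected on all 24 arrays, was not (-0.21, adjusted p 0.357), nor was scl0020280.2_157-S, detected on none. Gna11, a G protein of the Gq class, fell by 0.55 in LPS cells, where all 3 of its probes were called, and by 0.47 in THC_LPS cells. The called differences of Gna12 (-0.47, LPS), Fabp4 (0.25, LPS) and Gnao1 (-0.29, CBD_LPS) were in probes detected on 7, 0 and 0 arrays, and each was lost with single arrays left out: Gna12 without LPS replicate 1 or Cntr replicate 5 (-0.40 each), Fabp4 without LPS replicate 1, 2, 4 or 5 or Cntr replicate 2, 3 or 4 (0.21 to 0.24), and Gnao1 without CBD_LPS replicate 1 or 2 or Cntr replicate 1, 2 or 6 (-0.34 to -0.24).

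**Figure D5:**
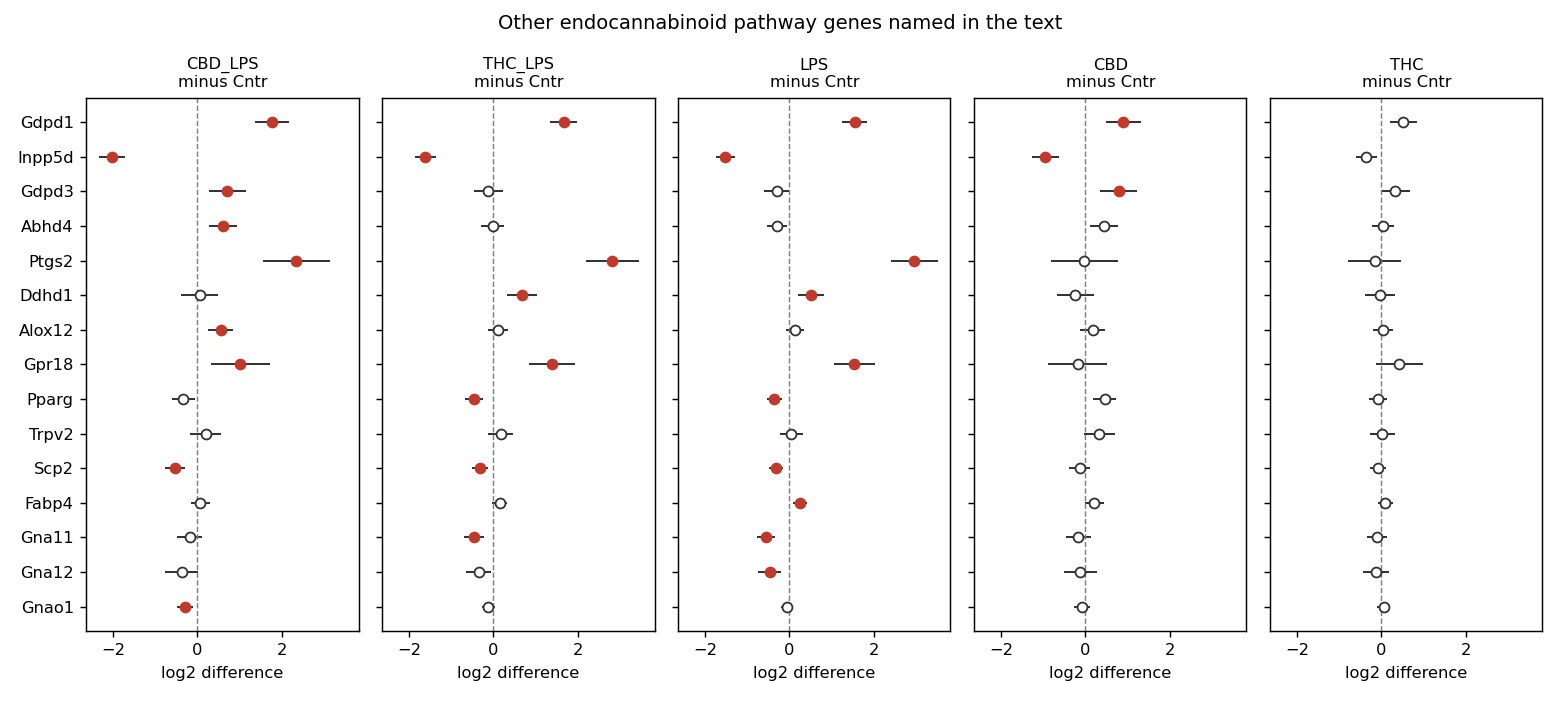
Log2 difference from Cntr (horizontal axis) with its 95% interval for 15 other genes of the pathway (rows) in 5 groups (panels). Red points passed at an adjusted p under 0.05 and open points did not. Gdpd1 and Inpp5d passed in opposite directions in CBD_LPS, THC_LPS, LPS and CBD cells.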

How the data were processed

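The authors deposited, for 24 Illumina MouseRef-8 arrays, the intensity of each probe (the mean bead signal, not normalized), its detection p-value, and log2 values. The deposited log2 values equalled the quantile-normalized log2 of the signals, without background correction, to within 5e-09, so small signals are compressed towards the floor (lowest value 5.74, median 7.00) and differences of dim probes are understated. The software that made them is not given in the sources used here. Groups came from the labels alone. The study's methods give 4 independent arrays per treatment, while its results speak of 6 replicates. Neither count holds for all the labelled groups. Gene names came from the platform annotation (19852 of 24611 probes have 1 gene). R 4.3.3 with limma 3.58.1 fitted 6 group means over all arrays (lmFit, eBayes), with Benjamini-Hochberg adjustment over all probes, after a check on simulated data. Alternatives were neqc (offset 16), background subtraction, equal medians, a detection filter, a variance trend with a robust prior, replicate blocks, the compared groups alone, array weights, an unadjusted p of 0.005 or less, a detection p under 0.01, any probe of a gene, and each array left out.

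Every member probe was named. Of the other pathway genes, up to 4 per list with the largest called difference from Cntr were named, with Gpr18, Trpv2 and Pparg, and the 3 probes most correlated with each member that passed the F test. The members and lists were chosen with earlier results of these data known. Promoter sequences were those of RefSeq (GRCm38.p6), and 8 of the 10 genes had one. Patterns for NF-kB and interferon-response elements were searched in them as well as the PU.1 core and are not reported here.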

Additional observations from a re-analysis of the deposited data

Results flagged for a closer look

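In groups of 4 or 6 arrays, 9 of 116 groups tested among the named probes held an array far from the rest, where chance gives about 1 in 20. For Cnr2 these were THC_LPS replicate 2 (7.33, nearest array 6.79), the only THC_LPS array on which Cnr2 was detected, and LPS replicate 4 (6.45, nearest 6.76). Gpr18 was high on THC replicate 1 (8.45, nearest 6.65). Inpp5d was high on THC replicate 2 (11.34, nearest 11.12), Gdpd3 low on THC_LPS replicate 4 (10.12, nearest 10.87), Ptgs2 high on Cntr replicate 6 (7.53, nearest 6.92) and Trpv2 high on LPS replicate 2 (12.80, nearest 12.47). Pparg, at signals below detection, was high on LPS replicate 4 (6.98, nearest 6.63) and low on Cntr replicate 1 (6.72, nearest 6.99). No tested difference of the LPS response with and without a cannabinoid passed for a named gene.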

How the results depend on the processing

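No called difference changed sign under any alternative run. Between CBD_LPS and THC_LPS, 0 member probes were called with neqc, background subtraction, equal medians, the variance trend, the replicate block, the compared groups alone and array weights. Between CBD_LPS and LPS the compared groups alone gave 0 member probes and 1 other pathway gene, and the unadjusted threshold and any probe of a gene gave 4 pathway genes each. That threshold gave 1 member probe for CBD (Daglb), 1 for THC_LPS against LPS (Napepld) and 1 pathway gene for THC against Cntr, neqc 5 pathway genes for CBD_LPS against Cntr, and equal medians 1 for CBD against Cntr. With single arrays left out, member probes called against Cntr ranged over 5 to 6 for LPS, 4 to 5 for CBD_LPS, 3 to 5 for THC_LPS, 0 to 1 for CBD and 0 for THC, and 0 to 1 for CBD_LPS against LPS and against THC_LPS, with 4 to 6 for the F test. Other pathway genes ranged over 7 to 11 for LPS, 5 to 11 for CBD_LPS, 7 to 9 for THC_LPS, 0 to 5 for CBD, and 0 to 4 for CBD_LPS against LPS. The causes were not tested.

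Replicate numbers did not pair the arrays consistently across groups. Same-numbered deviations correlated from -0.698 to 0.707 (median -0.00129), over 0.1 in 16 of 44 pairs. Of 24 arrays, 6 matched their own number best. Between LPS and Cntr, numbers 1, 3 and 5 correlated at 0.707, 0.607 and 0.545, but numbers 2, 4 and 6 at -0.27, -0.0855 and 0.0952. Some arrays of different groups went together whatever their number. THC_LPS replicates 2 and 4, LPS replicates 1 and 2, Cntr replicates 1 and 4 and THC replicate 3 correlated at 0.275 to 0.735. Abhd12 and the brighter Daglb probe lay above their group means on each of these arrays, which were picked after seeing the data. The labels name no such block, none was fitted, and its part in the results was not tested. CBD and CBD_LPS numbers correlated at -0.698, and a block with the CBD_LPS numbers exchanged, added after seeing the data, also gave 0 member probes between CBD_LPS and THC_LPS. Equal medians raised the share of calls that were lower to 76.1% (58.5% with quantiles) for LPS and to 74.3% (57.5%) for THC_LPS against Cntr, and cut it to 16.2% (38.4%) for CBD_LPS against LPS and to 12.1% (30.4%) against THC_LPS. Signal close to background limits Cnr1, Cnr2 with LPS, Mgll, Dagla and the dimmer Daglb probe, and 2 arrays per group limit CBD and CBD_LPS.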
